A study of Mus musculus with 12 samples.

Results

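The epidermal growth factor (EGF) receptor family and its ligands were followed through 8 genes, taken by symbol from a table of 22416 genes. They are the receptors Egfr, Erbb2 and Erbb3 and the ligands Areg, Hbegf, Ereg, Tgfa and Btc. The counts are ribosome footprints, short pieces of mRNA left under a ribosome after nuclease digestion, recorded per gene in single live cells sorted into 384-well plates. Each value therefore joins the amount of an mRNA with its translation, and no matched mRNA counts were used. The cells came from the back skin of female C57BL/6 mice that received cycloheximide, which stalls ribosomes, 2 min before death, and the epidermis was freed with trypsin. Old mice were 22 to 26 months of age and are called P662, P722 and P758 after their postnatal day (5 plates). Young mice were 56 to 60 days of age and are called P57, P59 and P60 (5 plates). A plate of Sca-1-negative cells from both ages mixed (P57 and P679) and a plate on which ribonucleases were tested (P758) are given as values only. The labels do not name animals, and plates that share an age and a postnatal day were treated as a single mouse.

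The receptors of this family are tyrosine kinases that pair with each other when a ligand binds. Erbb2 has no known ligand of its own and serves as a partner, and Erbb3 has a weak kinase and binds neuregulins. The ligands are made as membrane-bound precursors and are released by proteases, chiefly Adam17, which needs one of the iRhom proteins coded by Rhbdf1 and Rhbdf2. In skin the family sustains the growth of basal keratinocytes, the repair of wounds and the hair cycle, and keratinocytes make their own ligands. Immediate early genes such as Fos and Egr1 are switched on within minutes of signalling through this and many other receptors.

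The 10 age plates held 1906 wells with at least 100 counts, and these were used throughout. Depth differed widely between animals. The summed count was 70549, 12886 and 896688 in the old animals P662, P722 and P758, and 5230, 12371 and 2384294 in the young animals P57, P59 and P60, so that P758 and P60 carry most of the information. Of 384 cell index sequences 383 occur on more than 1 plate, so wells were kept apart by plate. Values are counts summed over wells and scaled to 1000000 counts (CPM), with exact Poisson intervals at 95% that cover counting error only. Levels of different genes were not compared with each other, because longer genes give more footprints and lengths were not used. In such sums fewer cells of a type and less footprint RNA per cell cannot be told apart.

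RefSeq's table for GRCm38.p6 held the promoters of 5 of the 8 genes, those of Egfr, Erbb2, Areg, Btc and Tgfa. The gene of Egfr spans chr11:16752203-16913907 and that of Erbb2 chr11:98412484-98437716. These promoters are shown because Erbb2 was called higher in suprabasal wells while Egfr, on the same chromosome, was not. Each stretch covers 250 bases before and 50 after the gene's start, 5′ to 3′, on the plus strand, chr11:16751953-16752252 for Egfr and chr11:98412234-98412533 for Erbb2. Capitals mark the triple repeat GGAGGAGGA on either strand, and in Egfr also the Sp1 box GGGCGG, on the other strand, that overlaps it.
Egfr: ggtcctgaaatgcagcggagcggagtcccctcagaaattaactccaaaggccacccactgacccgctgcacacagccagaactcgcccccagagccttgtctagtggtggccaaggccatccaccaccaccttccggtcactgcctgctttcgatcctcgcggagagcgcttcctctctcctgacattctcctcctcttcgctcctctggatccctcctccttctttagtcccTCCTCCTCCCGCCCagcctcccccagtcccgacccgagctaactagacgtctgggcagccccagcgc
Erbb2: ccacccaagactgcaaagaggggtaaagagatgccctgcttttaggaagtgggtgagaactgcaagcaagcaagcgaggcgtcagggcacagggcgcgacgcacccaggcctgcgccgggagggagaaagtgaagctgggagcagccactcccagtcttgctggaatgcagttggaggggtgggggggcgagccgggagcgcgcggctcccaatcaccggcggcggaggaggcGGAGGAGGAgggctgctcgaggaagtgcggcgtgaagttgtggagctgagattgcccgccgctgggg
Each of the stretches held 1 repeat, which was found in 3.03% of 32851 promoters of this length. The Sp1 box occurred once in Egfr and not in Erbb2, and in 35.7% of all promoters. The AP-1 site TGANTCA (7.81% of promoters), the AP-2 site GCCNNNGGC (16.6%), the cyclic AMP element TGACGTCA (1.79%) and TATAAA (13.6%) were in neither stretch. All were searched on both strands, and they are matches of letters only.

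Of the family's counts in the kept wells, 4204 fell on the 3 receptors and 84 on the 5 ligands. Erbb3 spans chr10:128567523-128589635. Among the ligands Ereg (chr5:91074617-91093649), Areg (chr5:91139599-91148432) and Btc (chr5:91357261-91402994) are neighbours, while Tgfa is at chr6:86195038-86275744 and Hbegf at chr18:36504927-36515805. Egfr had 1596 counts in 684 wells, Erbb2 964 counts in 564 wells and Erbb3 1644 counts in 736 wells. Among the ligands Hbegf, which codes for heparin-binding EGF-like growth factor, held 59 counts in 43 wells, and Tgfa, which codes for transforming growth factor alpha, held 14 counts in 13 wells. Areg (amphiregulin) had 9 counts in 9 wells and Btc (betacellulin) 2 counts in 2 wells. Ereg (epiregulin) had 0 of all counts, also on the Sca-1-negative and nuclease plates. A count of 0 among the 2384294 counts of P60 allows up to 1.26 CPM.

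The 3 receptors were often counted in the same well. Of 437 wells with at least 2000 counts, 198 (45.3%) had counts of all 3 receptors, 153 had 2 of them, 65 had 1 and 21 had none. Wells with at least 5 counts of 10 immune marker genes gave a background. In P60 those 29 wells (median 964 counts) had 182 CPM of Egfr, 109 of Erbb2 and 164 of Erbb3. The 563 basal wells without so many immune counts (median 1653) had 555, 205 and 457 CPM. The immune marker wells also had 8353 CPM of the basal keratin Krt5, against 31640 CPM in those basal wells, so their receptor counts stand beside keratin counts that T cells and Langerhans cells should lack.

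By plate the receptors spread most where depth was low. The sum of the 3 receptors averaged 1378 ± 197 CPM (SD over the 10 age plates). Egfr ran from 389 to 854 CPM with a median of 484 over the plates, Erbb2 from 77.6 to 566 CPM with a median of 326, and Erbb3 from 388 to 574 CPM with a median of 502. The lowest Erbb2 value came from the plate of P722, where it is 1 count.

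The design sets old against young epidermis. No receptor was called different with age. Egfr had 482, 854 and 400.4 CPM in old P662, P722 and P758, and 765, 485 and 496 CPM in young P57, P59 and P60. Erbb2 had 468, 77.6 and 329 CPM in the old animals, and 382, 566 and 263 CPM in the young ones. Both genes overlapped between the ages. Erbb3 had 482, 388 and 458 CPM in old animals, and 574, 566 and 497 CPM in young animals, without overlap. The share of all genes without overlap was not counted, and the Erbb3 values of P722, P57 and P59 rest on 5, 3 and 7 counts. The Poisson interval of each of these values covers all Erbb3 values of the other age. The lack of overlap is therefore not read as a difference. edgeR's quasi-likelihood test on summed counts of 3 against 3 animals gave log2 changes, old over young, of -0.06 (SE 0.38) for Egfr, 0.21 (SE 0.39) for Erbb2 and -0.20 (SE 0.32) for Erbb3, each with an adjusted p of 0.99. Over all genes edgeR called 0 (0%) and DESeq2 called 0. At p under 0.05 before adjustment they had 27 and 6 genes. The signs of these receptor changes turn under other settings and carry no direction.

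Hbegf was called higher in old animals by edgeR, but only where a looser filter let it be tested. It had 99.2, 0 and 46.8 CPM in old P662, P722 and P758, from 7, 0 and 42 counts. All 7 counts of P662 came from its plate 11, and its plate 7 had 0. In young animals Hbegf had 0, 0 and 4.19 CPM in P57, P59 and P60, from 0, 0 and 10 counts. The zeros allow up to 233 CPM in P722, 574 in P57 and 243 in P59, so the difference was measured in P662 and P758 against P60 alone. With a filter at a mean of 20 CPM, under which edgeR called 45 (0.67%) of 6714 genes and 36 (0.536%) of them higher, the log2 change was 3.58 (SE 0.49, edgeR adjusted p = 6.10e-10). That p-value rests on a spread pooled over all genes and hardly measures the spread of Hbegf between these animals. DESeq2 gave 2.56 with an adjusted p of 1.00, and without P60 edgeR's adjusted p was 0.652, so the call rests on 1 young animal. Without P662 the filter left the gene out. Other measures moved with it. The share of counts in immediate early genes was 2.78, 0.497 and 1.41% in the old animals, and 0.172, 2.42 and 0.442% in the young ones, in the order above. Their part in the difference was not tested. The ribonuclease plate (P758) had 31.2 CPM of Hbegf, from 4 counts, and the Sca-1-negative plate 0, which allows up to 173 CPM. The other ligands were too sparse for any comparison by age.

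Wells were then ordered by a keratin ratio, the share of Krt1 and Krt10 in the counts of Krt1, Krt10, Krt5 and Krt14. Krt5 and Krt14 are the keratins of the basal layer and Krt1 and Krt10 those of the suprabasal layers. Wells with at least 10 such counts were called suprabasal above 0.8 (339 wells) and basal below 0.2 (919 wells), and 155 lay between. The remaining wells had under 10 keratin counts. Over the basal markers Krt5, Krt14, Krt15, Col17a1, Itga6 and Itgb4 the summed level was 6535 CPM in suprabasal and 69886 CPM in basal wells of P758, and 13745 and 78034 CPM in those of P60. The classes thus differ in markers, of which 2 were part of the rule.

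Erbb2 was higher in suprabasal wells. It had 538, 0, 476 and 411 CPM in suprabasal wells of P662, P722, P758 and P60, from 17, 0, 149 and 203 counts. In basal wells of these animals it had 115, 0, 256 and 206 CPM, from 1, 0, 112 and 332 counts. The suprabasal value was higher in 3 of 4 animals, and P722 had no count in either class. The ratio was 1.86 (interval 1.44 to 2.40) in P758 and 2.00 (1.67 to 2.39) in P60, and 4.67 (0.731 to 195) in P662. With the animal as a block, edgeR's log2 change of suprabasal over basal wells was 1.20 (SE 0.21, adjusted p = 8.46e-08). The same fit called 1075 (32.6%) of 3301 genes, 647 (19.6%) of them higher in suprabasal wells, and 2 of the 3 receptors were among these. Without P60 the adjusted p of Erbb2 was 0.0904, with a log2 change of 1.41. One suprabasal well of P758 held 32 counts of Erbb2, and without it the suprabasal value of P758 was 396 CPM and the fitted change 1.09 (edgeR adjusted p = 1.03e-06).

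Egfr was not called. It had 285, 446, 396 and 395 CPM in suprabasal wells of P662, P722, P758 and P60, and 692, 1093, 416 and 553 CPM in basal wells. The suprabasal value was the lower one in all 4 animals, from 9, 1, 124 and 195 counts. The ratio was 0.952 (0.751 to 1.20) in P758 and 0.715 (0.609 to 0.836) in P60, so the young animal's interval lay below 1 and that of the old animal included it. The fitted change was -0.16 (SE 0.21, edgeR adjusted p = 0.643), and -0.67 without P758 (adjusted p = 0.0324), where it passed.

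Erbb3 was higher in suprabasal wells by a small margin. It had 506, 891, 485 and 604 CPM in suprabasal wells of P662, P722, P758 and P60, and 461, 364, 429.6 and 456 CPM in basal wells. All 4 animals had the higher value in suprabasal wells, with a ratio of 1.13 (0.906 to 1.41) in P758 and 1.32 (1.15 to 1.52) in P60. The fitted change was 0.52 (SE 0.21, edgeR adjusted p = 0.0419). Under a scaling by total count it was 0.31 and no longer passed (adjusted p = 0.217), and it did not pass when any one of the 4 animals was left out. The scalings differ because total counts put the median of all genes at -0.11 and TMM factors at 0.10. They turn the split of called genes as well, to 452 higher and 636 lower under total counts, against 647 higher and 428 lower. Erbb2 passed under both, at 0.98 with total counts.

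**Figure D1:**
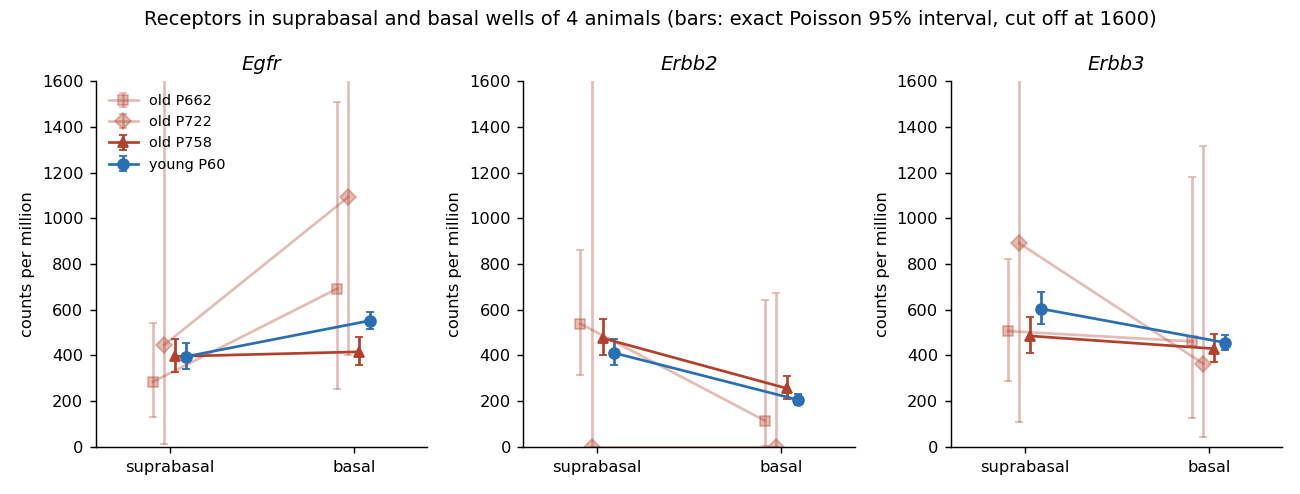
CPM of the 3 receptors in suprabasal (left) and basal (right) wells, 1 line per animal, with exact Poisson 95% intervals, of which the longest run past the axis. Erbb2 stands at 476 against 256 CPM in old P758 and at 411 against 206 CPM in young P60, while the paler animals P662 and P722 have wide intervals.

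The balance of the receptors differed accordingly between the classes. Erbb2 made up 65.4, 54.6 and 51.0% of the counts of Egfr and Erbb2 together in suprabasal wells of P662, P758 and P60, and 14.3, 38.1 and 27.1% in basal wells. The exact binomial interval was 48.5 to 60.6% against 32.5 to 43.9% in P758, and 46.0 to 56.0% against 24.7 to 29.7% in P60. A ratio of 2 genes within the same wells does not depend on the scaling. At equal depth the pattern remained for Erbb2. With each well thinned to 500 counts, 19.7% of suprabasal and 10.3% of basal wells of P758 had an Erbb2 count, and 22.8% and 10.7% of those of P60 did. Without thinning the shares were 46.7% and 29.8% in P758, and 66.7% and 40.6% in P60. Shallower wells, 577 in all, were left out of the thinning.

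The receptors were also followed along the keratin ratio. In P60 Egfr had 575, 483, 426, 311, 312 and 413 CPM in 6 bins of rising ratio. Erbb2 had 185, 286, 262, 494, 413 and 395 CPM in the same bins. Erbb3 had 424, 566, 591, 575, 889 and 534 CPM, with its highest value at ratios between 0.9 and 0.98. In P758 the bin between 0.9 and 0.98 also held the highest Erbb3 value, at 706 CPM (461 to 1035), and Erbb2 was highest in the last bin, at 491 CPM (410 to 583), against 227 CPM (177 to 287) in the first. Egfr of P758 stayed between 299 and 430.5 CPM without a trend.

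**Figure D2:**
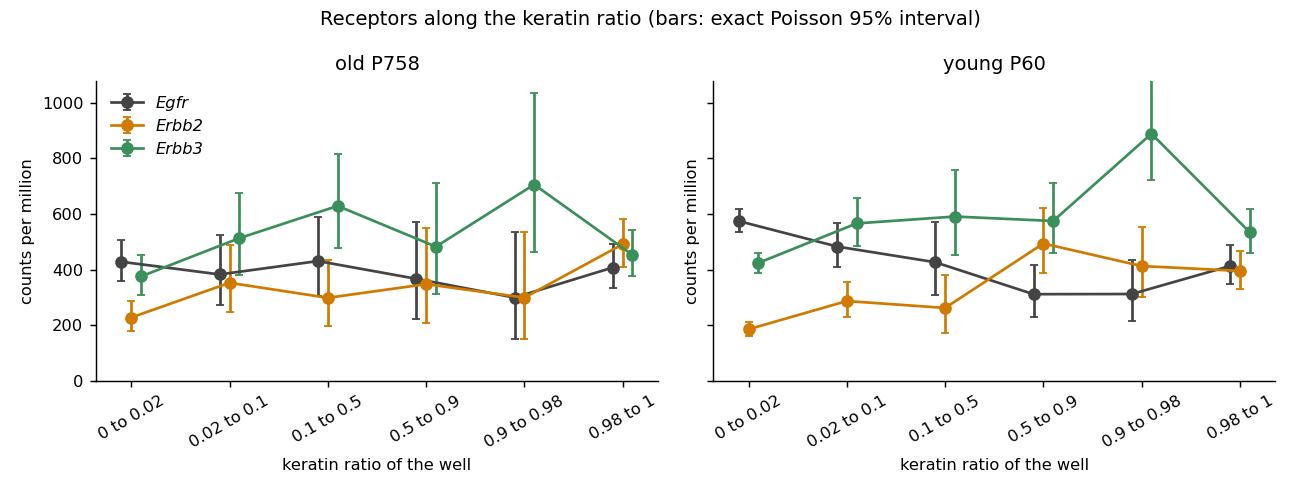
CPM of the 3 receptors in 6 bins of the keratin ratio, from basal at the left of each panel to suprabasal at the right, in old P758 and young P60 with exact Poisson 95% intervals. In P60 Egfr runs from 575 CPM in the first bin to 311 CPM in the fourth while Erbb2 reaches 494 CPM there.

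Other cell types in the classes were measured beside these results. The summed level of 6 granular layer markers was 3767 CPM in suprabasal wells of P758, with Lce1a1 at 0, and 56.8 CPM in those of P60, with Flg, Flg2, Lce1a1 and Hrnr at 0. Hair follicle and sebaceous markers summed to 1769 CPM in suprabasal and 2767 CPM in basal wells of P758, and to 6975 and 2456 CPM in those of P60, with Lgr5 and Pparg at 0 in the suprabasal wells of both. Without wells that carried markers of other cell types the log2 change of Erbb2 was 1.18 (edgeR adjusted p = 4.61e-06). Immediate early genes took 1.06 and 1.80% of counts in suprabasal and basal wells of P758, and 0.254 and 0.508% in those of P60. Among wells low in immediate early genes the change of Erbb2 was 1.20 (edgeR adjusted p = 0.00708).

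Hbegf had 79.8 CPM in suprabasal and 27.4 CPM in basal wells of P758, from 25 and 12 counts, a ratio of 2.91 (1.41 to 6.36). In P60 it had 0 counts in suprabasal and 9 counts (5.58 CPM) in basal wells, and in P662 4 counts in suprabasal and 0 in basal wells. The animals thus differed in where it was found, and the fitted change of 1.27 (SE 0.57) was not called (edgeR adjusted p = 0.0861, mean of at least 20 CPM, where 27.7% of genes were called, 16.4% higher and 11.3% lower). A suprabasal well of P758 held 10 of the counts, and without it the suprabasal value was 52.4 CPM. Suprabasal wells of P758 had 13.1 times the floor of 3 counts in P60, 6.08 CPM, or 8.61 times without that well. Those of P662, from 4 counts, had 20.8 times the floor. These ratios are not lower bounds. The P758 value had an interval of 51.6 to 118 CPM, or 29.3 to 86.4 CPM without that well. The 17 wells of P758 with at least 5 immune marker counts had 90.1 CPM of Hbegf (10.9 to 325), from 2 counts. These are too few to place it above or below the suprabasal value, and the 29 such wells of P60 had 0 counts. The granular markers given above moved with the difference in Hbegf between suprabasal wells of P758 and P60. Their part in that difference was not tested. Tgfa had 4 counts in suprabasal and 9 in basal wells, Areg 4 and 1, and Btc 2 and 0, too few for a comparison.

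Of 8 genes for shedding, 5 were tested in the suprabasal against basal fit, 3 were higher and 0 lower, where 19.6% of all genes tested were higher and 13% lower. The median log2 change was 0.61 against 0.10 over all genes tested. Rhbdf2, which codes for iRhom2, had 158, 0, 176 and 257 CPM in suprabasal wells of P662, P722, P758 and P60, and 0, 182, 59.4 and 60.2 CPM in basal wells. The values of P662 and P722 rest on 5 counts or fewer. Its fitted change was 2.12 (SE 0.25, edgeR adjusted p = 3.34e-16), and it passed under all alternatives run. Adam17, the main sheddase of these ligands, had 291 against 112 CPM in P758 and 249 against 180 CPM in P60, a change of 0.99 (SE 0.22, edgeR adjusted p = 3.17e-05) that DESeq2 did not call (adjusted p = 0.198) and that did not pass without P60 (0.0522) or P758 (0.429). Adam10, a related sheddase, had a change of 0.61 (edgeR adjusted p = 0.0324), which was 0.41 under total counts (adjusted p = 0.163). Rhbdf1 (-0.26) and the tetraspanin Cd9 (-0.17) were not called.

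Of 16 feedback genes 6 were tested, 3 were lower in suprabasal wells and 0 higher, against 13% of all genes lower, with a median of -0.54. Lrig1, a membrane protein that lowers receptor levels and marks stem cells of the hair follicle, had 94.97, 0, 60.7 and 111 CPM in suprabasal wells of P662, P722, P758 and P60, and 577, 182, 263 and 410.0 CPM in basal wells. All 4 animals had the lower value in suprabasal wells. Its change was -1.76 (SE 0.24, edgeR adjusted p = 5.50e-12), and it passed under all alternatives run, at -1.03 without wells that carried markers of other cell types. Cblb, a ubiquitin ligase that acts on activated receptors, had a change of -1.45 (SE 0.25, adjusted p = 3.45e-08), with 102 against 304 CPM in P758 and 85.1 against 283 CPM in P60. Without P60 or P758 its adjusted p was 0.157 and 0.0554. The phosphatase Ptpn1 had -0.73 (edgeR adjusted p = 0.0402), and 0.126 was its adjusted p with the looser filter. That filter let 12 feedback genes be tested, of which 5 were lower and 0 higher, against 11.3% of all genes lower. They included Spred2, an inhibitor of the Ras pathway, at -2.52, Spred1 at -1.70 and Socs3, an inhibitor of cytokine signalling, at -1.67. Spred2 reached the filter only with 2 basal counts of P662, and Spred1 only with 1 basal count of P722.

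Downstream of the receptors, 15 of 21 transduction genes were tested, 3 were higher and 0 lower, with a median of 0.24. That count is close to the 19.6% of all genes called higher. The docking protein Gab1 had a change of 1.14 (SE 0.24, edgeR adjusted p = 1.68e-05), the phospholipase Plcg1 one of 1.01 (SE 0.22, adjusted p = 3.71e-05) and the kinase Araf one of 0.80 (SE 0.29, adjusted p = 0.02002). DESeq2 called none of these 3, with an adjusted p of 0.124, 0.0573 and 0.475, and none passed without P60. Of 12 target genes 5 were tested, 1 was higher and 2 were lower, with a median of -0.44. Epha2, a receptor of ephrins, had 0.86 (edgeR adjusted p = 0.000417), while Serpinb2, a protease inhibitor, had -1.08 (adjusted p = 7.33e-06) and Ptgs2, the inducible cyclooxygenase, -0.80 (adjusted p = 0.0424). Among wells low in immediate early genes Serpinb2 had -0.45 and did not pass (adjusted p = 0.431), and Ptgs2 did not pass with the looser filter. With the looser filter the cell cycle gene Ccnd1 was lower as well, at -4.13, from 1 suprabasal and 52 basal counts in P758 and 2 and 169 in P60. P662 had 1 count in each class and P722 had 0. Ccnd1 was let into this test by its basal counts, the side on which it was higher.

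**Figure D3:**
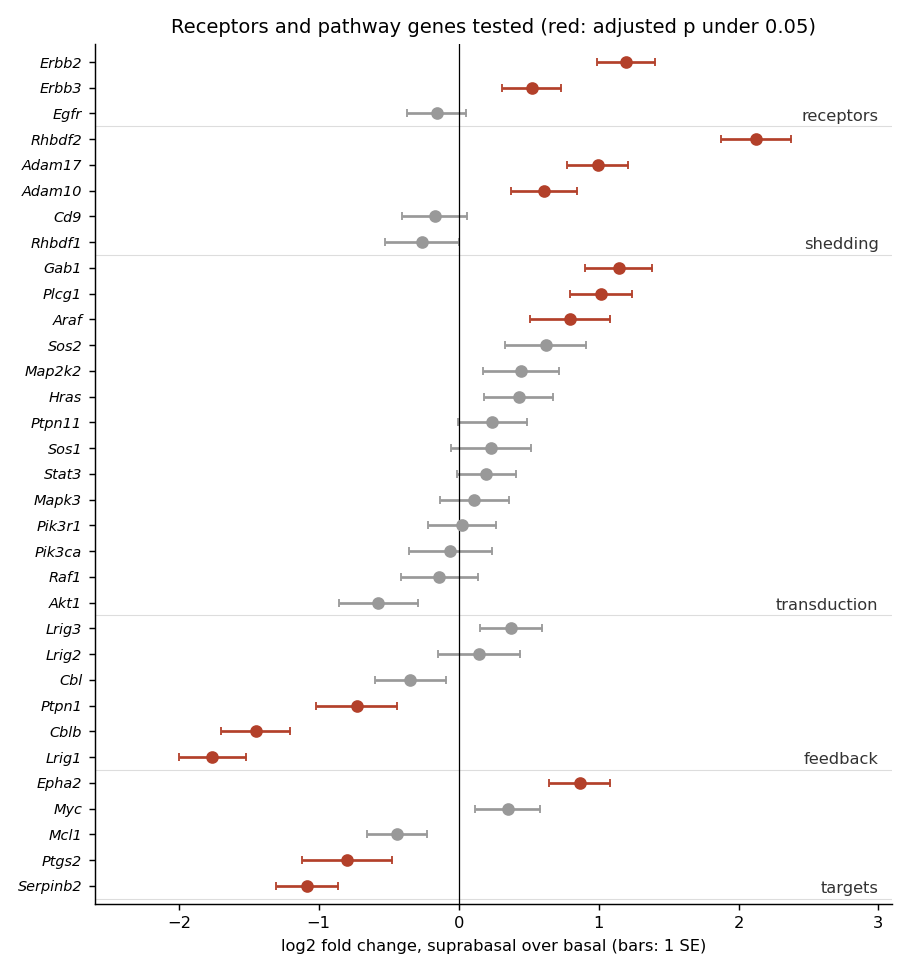
Log2 change of suprabasal over basal wells, with 1 SE, for the receptors and genes tested from 4 lists, red where edgeR's adjusted p was under 0.05. Erbb2 (1.20) and Rhbdf2 (2.12) lie at the right, and Lrig1 (-1.76) and Cblb (-1.45) at the left.

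Of 7 other ligands and receptors of the family none passed the stricter filter. With the looser one 2 were tested and both were lower in suprabasal wells, from few counts, where 11.3% of all genes tested were lower. Both reached that filter only through 1 basal count in P722, worth 182 CPM there. They were thus let in by the side on which they were higher. Epgn, which codes for the EGF-like ligand epigen, had 0 suprabasal counts in all 4 animals, against 10 basal counts in P758, 30 in P60, 1 in P722 and 0 in P662. Nrg1, a ligand of Erbb3, had 0 suprabasal counts in all 4 animals, and 10 basal counts in P758, 6 in P60 and 1 in P722. The edgeR adjusted p was 0.00112 for Epgn and 0.0296 for Nrg1. Nrg2 had 37 counts in all age plates, Egf 8, Nrg3 7, Nrg4 6 and Erbb4, the remaining receptor of the family, 1.

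The relation to immediate early genes was taken over 19 such genes, of which none is among the 8 members. The wells of each animal were ranked by their share of counts in these genes and cut into 3 parts of like size, and the highest part was set against the lowest in 5 animals with at least 5 wells in each. Hbegf went with this share. It had 275, 0, 89.1, 0 and 3.12 CPM in the highest part of P662, P722, P758, P59 and P60, from 4, 0, 25, 0 and 2 counts. In the lowest part it had 0, 0, 8.73, 0 and 1.15 CPM, from 0, 0, 2, 0 and 1 counts. The ratio was 10.2 (interval 2.54 to 88.9) in P758 and 2.71 (0.141 to 160) in P60. With the filter at a mean of 20 CPM the fitted log2 change was 3.06 (SE 0.83, edgeR adjusted p = 0.00759). That fit called 376 (5.69%) of 6608 genes, 155 (2.35%) of them higher. Hbegf reached this filter only with the 4 counts of P662 in the highest part, and without P662 it was left out. Without P758 the adjusted p was 0.829, and with wells cut into 2 equal parts the change was 0.95 (adjusted p = 0.406), so the call was lost under both settings, the second of which takes in P57 as well. DESeq2 gave 2.46 with an unadjusted p of 0.0567 and no adjusted p.

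Over bins of the immediate early share in P758, Hbegf had 9.94 CPM in wells with a share up to 0.25%, 0 between 0.25 and 0.5%, 59.2 between 0.5 and 1%, 47.1 between 1 and 2%, 60.2 between 2 and 4% and 159 CPM (82.0 to 277) above 4%. In the bin between 0.5 and 1% a single well held 10 of 12 counts, and without it the value was 11.4 CPM (1.38 to 41.1). In P60 the values were 2.66, 5.16, 4.89, 4.78 and 17.9 CPM in the first 5 bins, from 3, 3, 2, 1 and 1 counts. The interval of the fifth bin was 0.452 to 99.6 CPM, so no trend can be read in P60. Only 1 of its wells lay above 4%. The 27 wells of P758 with an Hbegf count had a median immediate early share of 3.40%, against 0.626% in its other wells, and a median depth of 1916 against 836 counts. In P60 the 9 wells with a count had 0.277%, against 0.309% in its other wells. Within basal wells of P758, ranked among themselves, the highest part had 10 counts of Hbegf and the lowest 0. Within suprabasal wells it had 11 and 2.

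Egfr was not called in this comparison. It had 482, 846, 303, 347 and 438 CPM in the highest part of P662, P722, P758, P59 and P60, and 592, 1017, 476, 478 and 556 CPM in the lowest. All 5 animals had the lower value in the highest part. The ratio was 0.637 (0.474 to 0.853) in P758 and 0.788 (0.678 to 0.915) in P60, and 0.523 (0.348 to 0.774) and 0.735 (0.613 to 0.879) within their basal wells. The fitted change was -0.46 (SE 0.23, edgeR adjusted p = 0.160) with the stricter filter, under which 51 (19.8%) of 257 genes were called. In wells of P758 with a share above 4% Egfr had 106 CPM (45.7 to 208), against 487 CPM (395 to 594) in wells up to 0.25%. Keratin classes were unevenly spread over these parts. The highest part of P758 held 138 basal and 40 suprabasal wells and the lowest 84 and 40, and in P60 they were 229 and 29 against 165 and 50.

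**Figure D4:**
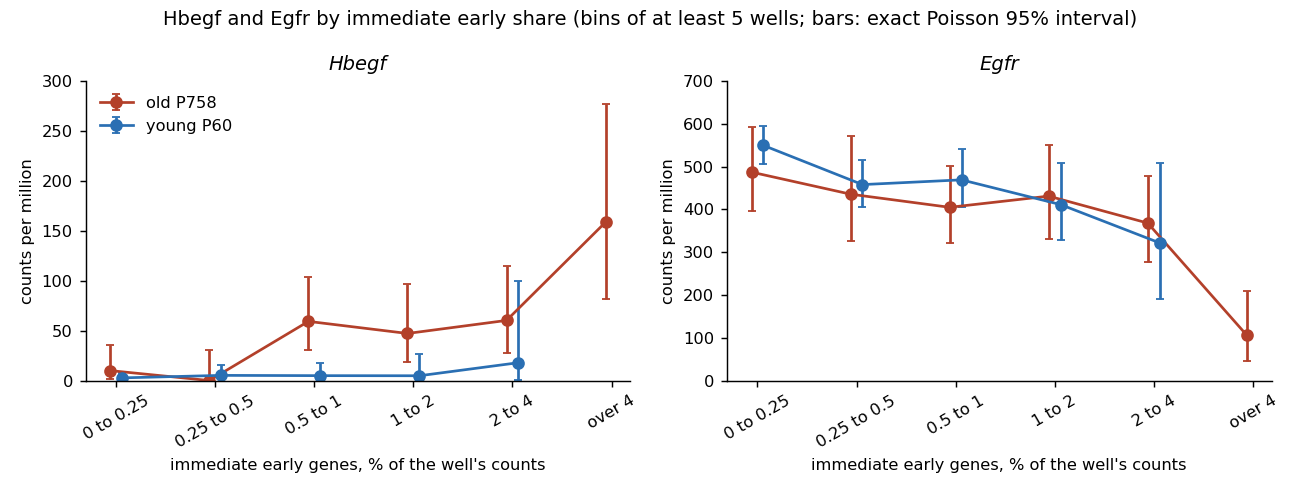
CPM of Hbegf (left) and Egfr (right) by the share of a well's counts in 19 immediate early genes, in old P758 and young P60, with exact Poisson 95% intervals and bins of at least 5 wells. Above 4%, where P60 has no bin, P758 stands at 159 CPM of Hbegf and 106 CPM of Egfr.

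Erbb2 and Erbb3 showed no called relation. Erbb2 had 317 against 345 CPM in the highest and lowest part of P758, and 264 against 252 CPM in P60. Erbb3 had 485 against 493.4 CPM in P758, and 489.6 against 471 CPM in P60. With the looser filter their changes were -0.06 (SE 0.29) and -0.23 (SE 0.29), with edgeR adjusted p of 0.975 and 0.839. In suprabasal wells of P60, ranked among themselves, Erbb2 had 543 CPM in the highest and 305 CPM in the lowest part, a ratio of 1.78 (1.23 to 2.57), whereas in P758 the ratio was 0.81 (0.523 to 1.24). The animals differed here, and the fit over animals for suprabasal wells gave 0.03.

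Of the pathway lists, feedback and target genes had called members in this comparison under the looser filter. Socs3 had a change of 2.76 (SE 0.42, edgeR adjusted p = 6.48e-09), with 381 against 13.1 CPM in P758 and 59.3 against 20.7 CPM in P60. Cblb, with 1.23 (SE 0.32, adjusted p = 0.00423), had 360.0 against 162 CPM in P758 and 356 against 143 CPM in P60. They were 2 of 13 feedback genes tested, with 0 lower and a median of 0.30 against 0.04 over all genes. Of 6 target genes tested 2 were higher and 0 lower, with a median of 0.60. Serpinb2 had 0.97 (adjusted p = 0.0248) and Mcl1, a survival factor, 0.95 (adjusted p = 0.0317). Without P758 none of these 4 passed, at an adjusted p of 0.0562, 0.262, 0.737 and 0.815 for Socs3, Cblb, Serpinb2 and Mcl1. Over the alternatives run, the call was lost in 2 settings for Socs3, 5 for Cblb and 7 for Mcl1. For Serpinb2 it was lost in 5, and the sign turned in 1 more. All 4 genes were also higher in basal than in suprabasal wells of P758 and P60, and the parts differed in keratin class as given above. No shedding gene (6 tested) and no transduction gene (21 tested) was called. Over all genes 2.35% were called higher under this filter. In the comparison of ages no gene of any of the 5 lists was called.

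Genes whose levels ran most like those of a receptor were ranked over 10 sums of wells, each of 1 keratin class in 1 animal with at least 10000 counts. Pearson correlations of log2(CPM + 20) over 4303 genes are given as a description, since these sums share animals and plates. For Erbb2 the closest were Pof1b (0.96), an actin-binding protein of differentiating epithelia, the glycosyltransferase Galnt1 (0.96) and Amotl2 (0.95). For Erbb3 they were Phldb3 (0.93), the ferroxidase Heph (0.93) and the transcription factor Pou2f3 (0.92). For Egfr they were the ribosome biogenesis factor Bms1 (0.90), the mitotic checkpoint protein Bub3 (0.90) and Copg1 (0.89), a coat protein of the Golgi. The same 9 genes were found with a pseudocount of 5.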

How the data were processed

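Counts of footprint reads per gene and well were deposited as whole numbers by the authors, with no normalization, for 12 plates. Per the submitters' processing notes fastp, Bowtie2, STAR, UMI-tools and featureCounts were used with GRCm38.p6. Their versions and settings, the collapsing of duplicates and the handling of strand and shared reads are not given in the sources used. No doublet caller was run, since each well received 1 sorted cell.

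The 8 members, the pathway and marker lists and the tests were chosen with earlier results of these data known. All members are described, and called list genes are named, up to 4 a list, the largest change first. Wells with under 100 counts were dropped. Counts were summed per animal, or per animal and class with at least 5 wells, and tested across all genes with edgeR 4.0.16 (TMM factors, filterByExpr, robust quasi-likelihood fit, Benjamini-Hochberg adjustment at 0.05) in R 4.3.3, with the animal as a block for classes. Plates of one animal are technical, and animals were the units under the assumption on days. edgeR's fit pools the spread between animals over all genes. For the members in the keratin class fit, and with the looser filter below, the p-values rest almost wholly on that pooled spread. They hardly measure a gene's own spread between animals. filterByExpr left Hbegf untested, so a looser filter, a mean of at least 20 CPM, gave its values and those of other sparse genes. Immediate early genes took no part in the test of their own ranking. DESeq2 1.42.0, limma 3.58.1, other filters, scalings, limits and leaving out each animal were alternatives, and combining them with the 20 CPM filter, or leaving out the well richest in Erbb2 or Hbegf, was added after seeing the data. Tests were tried on simulated counts. Intervals are exact at 95%, from scipy 1.17.1, and a count of 0 was set at a floor of 3 counts. One gene of the transduction list is counted with its list and is not reported here by name or in the plots.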

Additional observations from a re-analysis of the deposited data

Results flagged for a closer look

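Of 14 groups of 5 plates checked for a plate far from the rest, 4 stood out. All were ligands with 1 or 2 counts on that plate. The check marks about 1 group in 20 for normally distributed values, which such sparse counts are not. A gene counted on only 1 plate of an age, as Btc was in both ages, is always marked. Areg had 20.4 CPM, from 1 count, on old plate 11, where the next old plate had 1.88 CPM. It had 162 CPM, from 2 counts, on young plate 8, where the next young plate had 2.34 CPM. Btc had 46.5 CPM, from 1 count, on old plate 7 and 1.07 CPM, from 1 count, on young plate 3, with 0 on the other plates of each age. A single count is worth more CPM on a shallow plate, and all of these values lie at or under the floor of 3 counts for their plate.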

How the results depend on the processing

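Old against young called 111 genes with no filter, 45 with a mean of at least 20 CPM and 8 in suprabasal wells, against 0, and 0 without any one animal. Suprabasal against basal called 521 with DESeq2, 2023 with no filter, 1782 at 20 CPM, 473 in wells low in immediate early genes, 462 without wells of other cell types and 697 with plates and the animal as a random block, against 1075, and from 117 to 1539 without one animal. Immediate-early-high against low called 83 with DESeq2, 444 with no filter, 376 at 20 CPM, 340 in wells of 500 counts, 18 with no minimum, 116 in basal wells and 140 with the random block, against 51, and from 0 to 298 without one animal. Without one animal the suprabasal change ran from -0.67 to -0.11 for Egfr, 1.07 to 1.52 for Erbb2 and 0.33 to 0.58 for Erbb3. Erbb3 missed the threshold at 0.33 with DESeq2, 0.37 with no filter, 0.31 by total count, 0.46 in wells of 500 counts, 0.31 at keratin limits of 0.3 and 0.7, 0.35 in wells low in immediate early genes, 0.55 with 30 keratin counts and 0.43 with the random block. Hbegf by immediate early share missed it at 0.95 with wells cut in 2 parts, 3.01 in suprabasal wells and 2.03 with the random block. It had 2.46 with no adjusted p by DESeq2, and ran from 2.51 to 3.50 without one animal. Its age difference missed the threshold at 2.56 with DESeq2 and ran from 3.54 to 6.43 without one animal. Neither range covers P662, without which the filter left Hbegf out. Signs of uncalled changes turned. For old over young, Egfr had 0.21 with no filter, 0.0025 with no minimum, 0.30 at 20 CPM, 0.49 in basal, 0.44 in suprabasal and 0.36 in low immediate early wells, and -0.15 to 0.70 without one animal. Erbb2 had -0.17 with DESeq2 and -0.15 to 0.40 without one animal, and Erbb3 0.052 with no filter, 0.27 in wells of 500 counts, 0.052 in basal wells, 0.14 at 20 CPM and -0.15 to 0.58 without one animal. By immediate early share, Erbb2 had 0.015 with DESeq2, -0.16 to 0.016 without one animal, 0.25 over 5 immediate early genes, 0.13 in basal and 0.029 in suprabasal wells and 0.17 without its richest well, and Serpinb2 -0.13 in suprabasal wells. Hbegf between keratin classes ran from -0.26 without P758 to 1.88 without P60. Fewer wells or animals are part of several of these settings, and otherwise the cause was not tested. No paired analysis was possible because old and young plates share no replicate numbers. Depth limits every ligand: the floor of 3 counts was at or above 42.5 CPM in P662, P722, P57 and P59.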
